A study of Mus musculus with 15 samples.

Results

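The genes of the pore-forming alpha1 subunits of voltage-gated calcium channels were followed through the maturation of GFP-labelled interneurons of the mouse primary somatosensory cortex. The set is given by gene symbols, in a rule that holds no measured value: Cacna1a, Cacna1b, Cacna1c, Cacna1d, Cacna1e, Cacna1g, Cacna1h and Cacna1i, with every probe set annotated to each symbol and to no other gene. Of these 8 genes, 7 had such a probe set, out of 18193 genes with a probe set of their own, and they held 17 of 34945 probe sets. Cacna1i had none under its symbol and was not analysed here. Of the 17 probe sets, 12 passed a filter on dim signal (a value over 5 on the log2 scale on at least 3 of 15 arrays), out of 15381 that did so in all, and each of the 7 genes kept at least 1. The other 5 probe sets did not pass and were not tested.

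All mice were of the G42 transgenic line, in which parvalbumin-class interneurons carry GFP. Slices of cortex were digested with protease and dissociated, and GFP-positive neurons were picked by hand. The groups were postnatal day (P) 7, 10, 15, 25 and 40, the oldest covering up to day 45, with 3 animals and 1 Affymetrix mouse expression array an animal at each age. There was no treatment and no second genotype, so every comparison is between ages of 1 line. Between 23 and 85 cells were picked per animal, and the RNA went through 2 rounds of amplification. In such pools a smaller share of cells expressing a gene and less RNA per cell cannot be told apart.

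The alpha1 subunit forms the pore and the voltage sensor of a calcium channel, and its gene sets the channel's class. Cacna1a encodes the P/Q-type and Cacna1b the N-type channel, which open at strong depolarization, are bound by proteins of the active zone and let in the calcium that triggers transmitter release. At mature synapses of parvalbumin interneurons release is known to rely on P/Q-type channels. Cacna1e encodes the R-type channel. Cacna1c and Cacna1d encode L-type channels, which lie mainly on the soma and dendrites and couple calcium entry to gene expression. Cacna1g, Cacna1h and Cacna1i encode T-type channels, which open near the resting potential and can drive burst firing. Auxiliary beta and alpha2delta subunits help to bring the high-voltage-activated pores to the membrane.

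In the RefSeq annotation of GRCm38.p6, Cacna1a lies at chr8:84338631-84640251, Cacna1b at chr2:24603860-24763200, Cacna1e at chr1:154390806-154884785 and Cacna1c at chr6:118587240-119197384. Cacna1d lies at chr14:30039941-30491156, Cacna1g at chr11:94408391-94474400 and Cacna1h at chr17:25374285-25436334. RefSeq promoter windows, from 250 bases before to 50 after an annotated start, were at hand for 5 of the 8 genes. Those of Cacna1b and Cacna1e are shown because they are the genes called lower at P40 that have 1 window each. Cacna1d, also lower, had 2 windows, with matches counted on both strands and some of them overlapping. In 1, of 40.3% G and C, there were 3 TATAAA, and in the other, of 87.3%, 6 GGGCGG. Each window shown is 300 bases on the minus strand, written 5′ to 3′, with capitals for the letters GGGCGG, the core of a GC box. That of Cacna1b lies at chr2:24763103-24763402 and that of Cacna1e at chr1:154725871-154726170.
Cacna1b: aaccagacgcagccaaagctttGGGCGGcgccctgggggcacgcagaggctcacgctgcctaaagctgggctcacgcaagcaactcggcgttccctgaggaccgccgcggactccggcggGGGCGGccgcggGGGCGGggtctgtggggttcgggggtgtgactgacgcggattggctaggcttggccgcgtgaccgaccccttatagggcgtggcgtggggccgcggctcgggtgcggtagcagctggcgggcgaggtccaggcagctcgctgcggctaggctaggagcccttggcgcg
Cacna1e: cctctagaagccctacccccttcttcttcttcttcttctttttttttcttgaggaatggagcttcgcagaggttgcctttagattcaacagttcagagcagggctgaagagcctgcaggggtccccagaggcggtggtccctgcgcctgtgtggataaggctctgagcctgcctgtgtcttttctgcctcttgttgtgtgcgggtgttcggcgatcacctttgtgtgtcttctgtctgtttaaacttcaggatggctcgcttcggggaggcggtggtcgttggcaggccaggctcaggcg
The Cacna1b window held 3 GGGCGG on either strand and was 72.3% G and C. The Cacna1e window held 0 and was 55.3% G and C. On the minus strand a gene begins at its higher coordinate, 24763200 for Cacna1b and 154884785 for Cacna1e. The Cacna1b window spans that end, while the Cacna1e window lies inside the gene, at an internal annotated start. The windows are therefore not alike in position, and that of Cacna1e does not describe the start of the whole gene. The window of Cacna1b also held 1 CCAAT, and neither held TATAAA, counted on either strand. Of 32851 windows of this length, 35.7% held GGGCGG, 37.4% CCAAT and 13.6% TATAAA. No match shown overlapped another, and a match is a description of the letters, not of a bound site.

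The arrays carried the markers of the labelled class. Pvalb, the parvalbumin gene, averaged 14.28 ± 0.20 at P40 and 3.62 ± 0.72 at P7 (SD, n = 3 each, log2), below the limit of 5 at P7. Slc32a1, the vesicular GABA transporter, averaged 13.74 ± 0.07 at P40 and 13.02 ± 0.14 at P7. Slc17a7, which loads glutamate into the vesicles of excitatory neurons, was under 5 on every array, as were all 5 excitatory markers. Sst, the somatostatin gene of another interneuron class, read 1.72, 11.05 and 12.24 at P40 and 12.92, 10.90 and 10.76 at P7, so P40 replicate 1 stood apart. P15 replicates 2 and 3 also stood apart, with mean spiked-control values of 2.45 and 2.43, against 9.18 to 12.8 on the other arrays. The difference between the 3′ and 5′ actin control probe sets, a measure of how short the copied RNA is, was 3.93 ± 0.55 at P40 and 5.77 ± 0.98 at P7, with 4.50 ± 1.29 at P15. Its part in the results was not tested beyond the fits with it as a covariate given below. The correlation between arrays of 1 age, over all probe sets, was 0.969 to 0.991.

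Of the 7 measured alpha1 genes, 5 fell between P7 and P40. Cacna1b, Cacna1d, Cacna1e, Cacna1g and Cacna1h were lower at P40, while the highest-mean probe sets of Cacna1a and Cacna1c were not called. The log2 differences of P40 minus P7 were -3.34 for Cacna1e, -1.56 for Cacna1b, -0.94 for Cacna1d, 0.05 for Cacna1c and 0.58 for Cacna1a. For Cacna1g and Cacna1h, which were under the limit of 5 on 2 and on all 3 P40 arrays, the differences were -4.45 and -3.54 as fitted and -3.24 and -2.17 with values under 5 set to 5, so no order among these and Cacna1e is given. Each gene is represented by its highest-mean probe set. A call is an adjusted p under 0.05 in limma, with Benjamini-Hochberg adjustment over the 15381 probe sets.

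Of the 7 genes, 0 were called higher, 5 lower and 2 neither, where 27% of 9663 genes were called higher and 17.3% lower. Of the 12 probe sets, 0 were called higher and 8 lower, against 26% higher and 15.9% lower of all probe sets tested. Cacna1h is in both counts of lower, though it passed the filter only through younger ages, with 0 arrays over 5 at P25 and P40. With the filter set at 7 on at least 3 arrays Cacna1h was not tested, and 4 of 6 genes were called lower. The median difference was -1.04 over the 12 probe sets and -1.56 over the 7 genes, and 0.18 over all probe sets tested. With array medians made equal, which moved the median over all probe sets to -0.03, the 5 genes were called lower as before. In 8 of the 12 probe sets every P40 array lay below every P7 array (21.2% of all probe sets did), and in 1 every P40 array lay above (32%). A moderated F test over the 5 ages called 8 of the 12 probe sets (44.6% of all probe sets). These lay in 6 genes, with 4 to 7 genes under the alternatives. The share of all genes called by the F test was not counted. Without P40 replicate 1 and without P25 replicate 2, which had the largest actin difference of its age, 6.04, a choice made after seeing the data, 5 genes and 6 probe sets were called lower at P40.

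**Figure D1:**
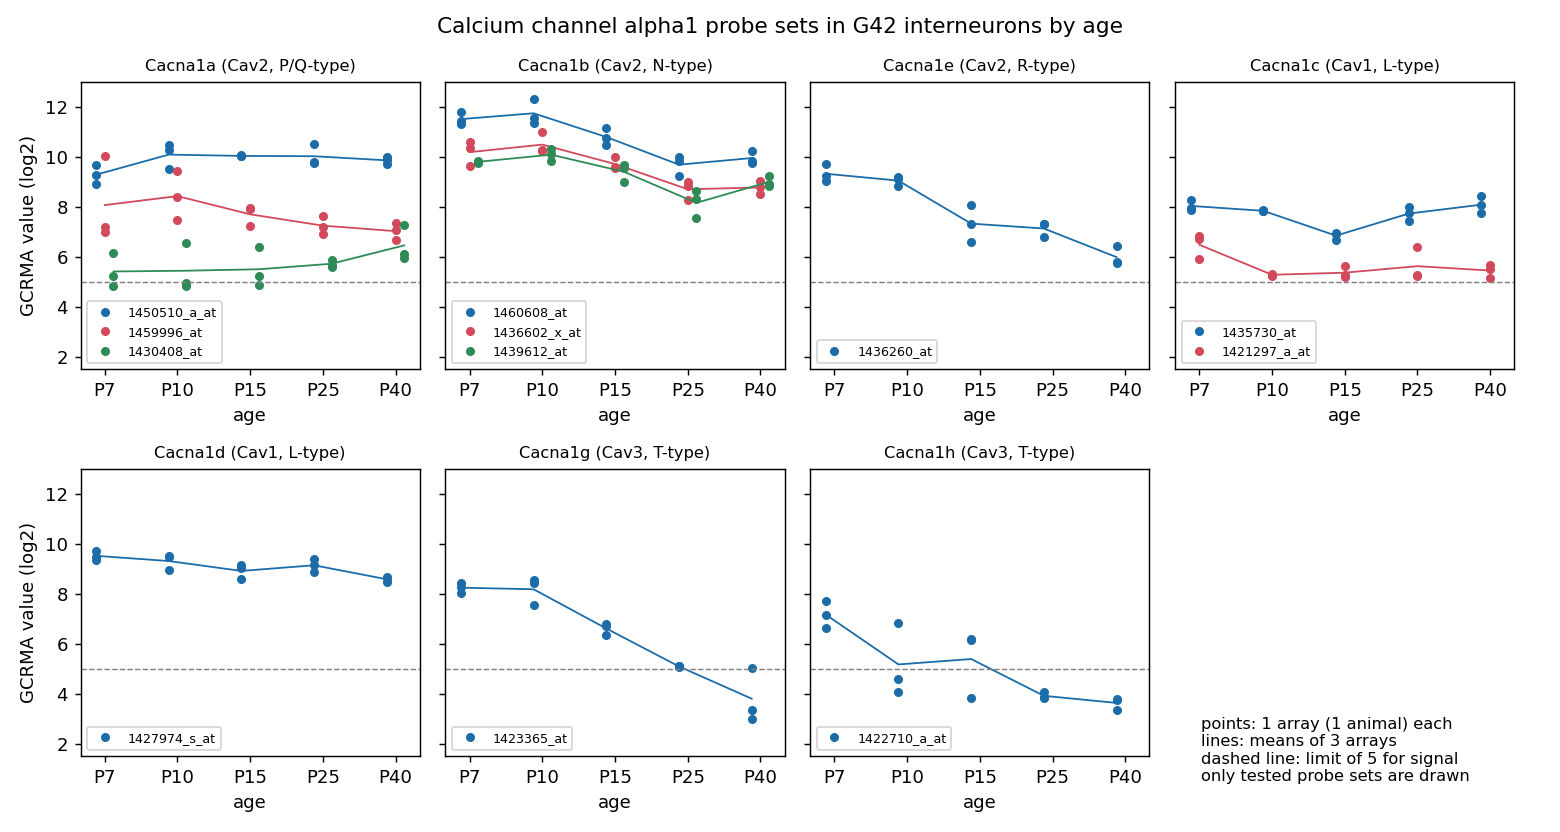
GCRMA values on the log2 scale (y axis) of the 12 tested alpha1 probe sets at P7, P10, P15, P25 and P40 (x axis), 1 panel a gene, with a point for each of 3 arrays and a line through the means. The dashed line is the limit of 5: Cacna1h is under it on all arrays at P25 and P40, and Cacna1g on 2 of 3 arrays at P40, while 1450510_a_at of Cacna1a stays between 8.93 and 10.53.

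**Figure D2:**
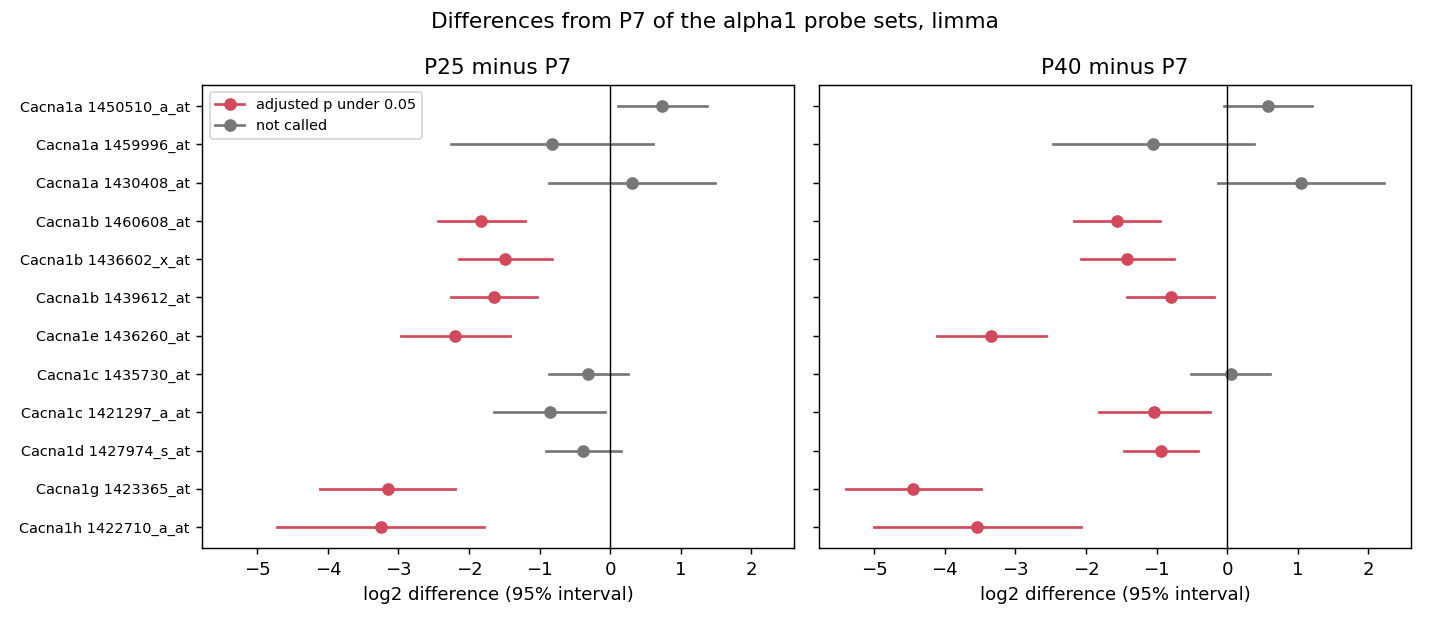
Log2 differences from P7 with their 95% intervals (x axis) for each tested alpha1 probe set (y axis), for P40 and for P25, from limma. At P40 the intervals of 8 called probe sets lie wholly below 0, those of all 3 Cacna1a probe sets cross 0, and that of 1435730_at of Cacna1c runs from -0.51 to 0.61.

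Cacna1a, the P/Q-type gene, had its highest mean in 1450510_a_at. This probe set read 8.93, 9.67 and 9.30 at P7, 10.30, 10.51 and 9.51 at P10, 10.05, 10.04 and 10.07 at P15, 9.78, 9.81 and 10.53 at P25 and 10.02, 9.72 and 9.89 at P40. All P40 arrays were above all P7 arrays, and no other neighbours in the order of the age means, P10, P15, P25, P40 and P7 from high to low, were clear of each other. The difference of P40 minus P7 was 0.58 (SE 0.29, 95% interval -0.05 to 1.20, limma adjusted p = 0.129), and that of P25 minus P7 was 0.74 (interval 0.11 to 1.37, adjusted p = 0.0584). Neither was called. The P25 minus P7 difference was called higher without P7 replicate 2 (0.93, adjusted p = 0.0402), without P10 replicate 3 (0.74, adjusted p = 0.0322), and with cells picked (0.94, adjusted p = 0.034) or the actin difference (0.81, adjusted p = 0.0431) as a covariate. The other Cacna1a probe sets were not called either: 1459996_at had a P40 minus P7 difference of -1.04 (adjusted p = 0.225) and 1430408_at one of 1.04 (adjusted p = 0.14), the second called higher with cells picked as a covariate (1.66, adjusted p = 0.0262). At P7 1459996_at read 7.20, 10.06 and 7.0, so P7 replicate 2 lay far above the other animals of its age. Without P7 replicate 2 its P40 minus P7 difference was -0.057 and its P25 minus P7 difference 0.16, against -1.04 and -0.82 with it. Over the 15 arrays the 3 probe sets correlated with each other at 0.0768, 0.155 and -0.671 (Pearson), and 1444455_at stayed between 2.38 and 2.56. Where each probe set lies along its long transcript, and so which isoforms it reads, is not known here, for Cacna1c below as well.

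Cacna1b, the N-type gene, fell on 3 probe sets. Its brightest, 1460608_at, read 11.33, 11.81 and 11.44 at P7, 12.32, 11.58 and 11.38 at P10, 10.50, 10.77 and 11.17 at P15, 9.85, 10.01 and 9.25 at P25 and 9.78, 10.25 and 9.86 at P40. The P7 and P10 arrays overlapped, as did those of P25 and P40, and no array of these later ages reached the lowest array of the earlier ones. It was 2.95-fold lower at P40 than at P7 (log2 difference -1.56, SE 0.29, 95% interval -2.17 to -0.95, limma adjusted p = 0.000637), and 3.54-fold lower at P25 (-1.82, adjusted p = 0.000206). The probe set 1436602_x_at, whose suffix marks probes that may also match other transcripts, was 2.66-fold lower at P40 (adjusted p = 0.00222). Its values followed those of 1460608_at with a Pearson correlation of 0.972 over the 15 arrays. The third, 1439612_at, averaged 9.02 ± 0.21 at P40 and 9.82 ± 0.05 at P7 (SD, n = 3 each) and was called lower (-0.80, adjusted p = 0.0358). That call was lost without any 1 of P7 replicates 1, 2 and 3 or P40 replicates 1 and 2, with differences of -0.83 to -0.72 and adjusted p of 0.0561 to 0.103. At P25 this probe set averaged 8.17 ± 0.54, a difference from P7 of -1.64 (adjusted p = 0.00048). A further probe set, 1425812_a_at, lay between 1.87 and 2.73 and was not tested. Averaging all probe sets of the gene gave a P40 minus P7 difference of -0.95 (adjusted p = 0.00215), a value made smaller by the dim 1425812_a_at.

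Cacna1e, the R-type gene, was measured by 1436260_at. It read 9.04, 9.25 and 9.73 at P7, 9.12, 8.86 and 9.21 at P10, 8.09, 6.59 and 7.35 at P15, 7.31, 7.33 and 6.80 at P25 and 5.79, 6.44 and 5.77 at P40. The P7 and P10 arrays overlapped, all P15 arrays lay below them, P15 and P25 overlapped, and all P40 arrays lay below P25. The gene was 10.1-fold lower at P40 than at P7 (log2 difference -3.34, SE 0.36, 95% interval -4.12 to -2.56, limma adjusted p = 8.42e-06) and 4.57-fold lower at P25 (-2.19, adjusted p = 0.000328). A further probe set, 1421692_at, lay between 2.11 and 2.22 on all 15 arrays and was not tested. Averaging both probe sets of the gene gave a P40 minus P7 difference of -1.70, a value made smaller by the dim and nearly flat 1421692_at.

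The levels of the genes cannot be set against each other, since each probe set binds with its own strength, but a difference from Cacna1a on the same array can be followed over ages. This measure was chosen after values were seen. It takes 1450510_a_at for Cacna1a, whose P40 minus P7 difference was 0.58. That of 1459996_at was -1.04 and that of 1430408_at 1.04, so the changes below depend on this choice of probe set. Cacna1b (1460608_at) minus Cacna1a (1450510_a_at) was 0.09 ± 0.40 at P40 and 2.23 ± 0.15 at P7 (SD, n = 3 each, log2), a change of -2.14. The change was -3.92 for Cacna1e and -1.52 for Cacna1d. For Cacna1g and Cacna1h, mostly or wholly under the limit at P40, it was -5.02 and -4.11 as measured and -3.81 and -2.75 with values under 5 set to 5. Without P40 replicate 2 that of Cacna1g was -5.72. For these 5 genes the arrays of P40 and P7 did not overlap, and a two-sided exact permutation test gave p = 0.1, the smallest that 20 arrangements allow (0.12 after Benjamini-Hochberg adjustment over 6 genes). The share of all genes without overlap on this measure was not counted. All P40 arrays of 1450510_a_at lay above its P7 arrays, which by itself moves each difference down. The lack of overlap is therefore not read as particular to these genes. For Cacna1c the change was -0.52 (exact permutation p = 0.3, adjusted 0.3). A design of 3 animals against 3 cannot reach 0.05 in this test.

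**Figure D3:**
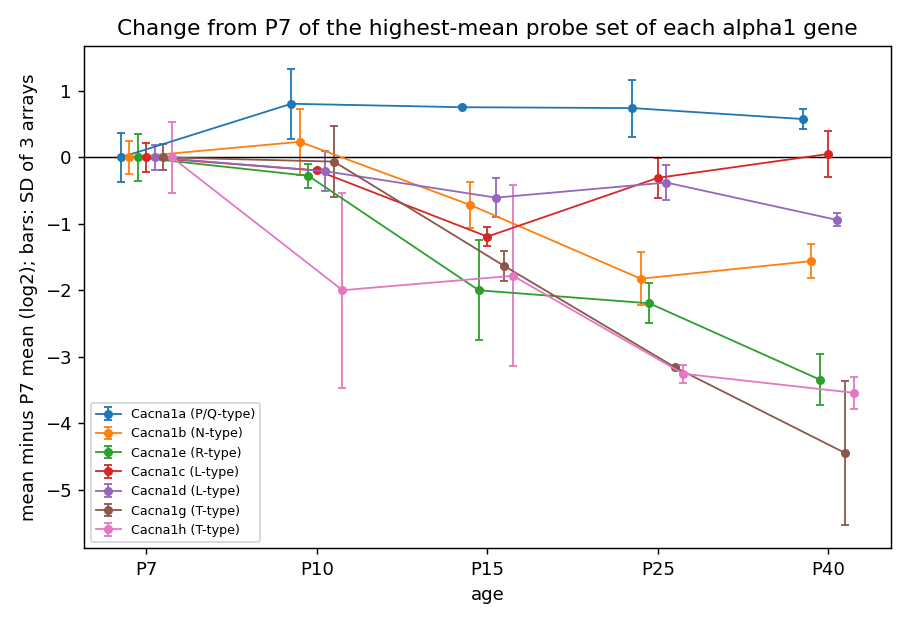
Mean log2 value at each age minus the P7 mean (y axis) against age (x axis) for the highest-mean probe set of each of the 7 alpha1 genes, with bars for the SD of 3 arrays. Cacna1g and Cacna1h, at P40 mostly or wholly under the limit of 5, end at -4.45 and -3.54, Cacna1e at -3.34, Cacna1b and Cacna1d at -1.56 and -0.94, and Cacna1c dips at P15 and ends at 0.05.

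Cacna1c, an L-type gene, followed a path that did not run one way. Its probe set 1435730_at read 7.95, 7.90 and 8.30 at P7, 7.88, 7.83 and 7.85 at P10, 6.69, 6.93 and 6.96 at P15, 7.43, 7.77 and 8.03 at P25 and 8.45, 8.10 and 7.76 at P40. All 3 P15 arrays lay below every array of the other ages. The F test over ages called it (limma adjusted p = 0.00802). It was 1.99-fold lower at P15 than at P10 (log2 difference -0.99, SE 0.26, 95% interval -1.56 to -0.43, adjusted p = 0.0318), and the P25 minus P15 difference of 0.88 was not called (adjusted p = 0.0751). P15 replicates 2 and 3 are the arrays with low spiked controls, and the P15 minus P10 call was lost without either of them, without P15 replicate 1 and without P10 replicate 1 or 2. The differences then were -1.04 to -0.91, with adjusted p of 0.0545 to 0.105. P40 minus P7 was 0.05 (95% interval -0.51 to 0.61, adjusted p = 0.894), a value whose sign changed under quantile normalization (-0.17) and when array medians were made equal (-0.17). Averaged with the second probe set, Cacna1c was called lower at P40 (-0.49, adjusted p = 0.0332) and at P25 (-0.58, adjusted p = 0.0162).

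The second Cacna1c probe set, 1421297_a_at, correlated with the first at 0.19 (Pearson, 15 arrays) and averaged 5.38 ± 0.24 at P15 and 5.29 ± 0.03 at P10 (SD, n = 3 each). It read 5.53, 5.70 and 5.16 at P40 and 6.84, 6.74 and 5.91 at P7, and was 2.05-fold lower (-1.03, limma adjusted p = 0.0353). The call was lost without P7 replicate 1 or 2 or P40 replicate 1 or 3 (differences -1.07 to -0.86, adjusted p 0.0711 to 0.119). Its F test over ages was not called (adjusted p = 0.0685). P25 minus P7 was -0.86 (adjusted p = 0.0778) and was called lower without P7 replicate 3 (-1.15, adjusted p = 0.0333) or P25 replicate 1 (-1.23, adjusted p = 0.0195).

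Cacna1d, the other L-type gene with a tested probe set, read 9.37, 9.47 and 9.74 at P7, 9.47, 9.51 and 8.98 at P10, 9.03, 8.58 and 9.14 at P15, 9.15, 9.40 and 8.89 at P25 and 8.66, 8.48 and 8.63 at P40 on 1427974_s_at. The P40 arrays lay below all P7, P10 and P25 arrays and overlapped those of P15. It was 1.92-fold lower at P40 than at P7 (log2 difference -0.94, SE 0.25, 95% interval -1.47 to -0.41, limma adjusted p = 0.00728). At P25 the difference was -0.38 and not called (adjusted p = 0.239). With the actin 3′ minus 5′ difference as a covariate the P40 call was lost (-0.71, adjusted p = 0.117). Another probe set, 1428051_a_at, lay between 1.95 and 2.10. Cacna1s and Cacna1f, the L-type genes of skeletal muscle and of the retina, were under 5 on all 15 arrays, with highest values of 2.97 and 2.10.

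Both measured T-type genes fell to or below the limit of 5. Cacna1g, on 1423365_at, read 8.04, 8.42 and 8.29 at P7, 8.45, 8.54 and 7.57 at P10, 6.71, 6.78 and 6.36 at P15, 5.10, 5.08 and 5.10 at P25 and 3.01, 5.04 and 3.36 at P40. After P10 each age lay wholly below the one before it. The P25 values stood just over the limit of 5, and at P40 only 1 of 3 arrays did, so no fold is given for P40. P40 minus P7 was -4.45 (SE 0.44, 95% interval -5.40 to -3.49, limma adjusted p = 4.17e-06), and -5.06 without P40 replicate 2, the array over the limit. With values under 5 set to 5 it was -3.24. At P25 it was 8.91-fold lower than at P7 (-3.15, adjusted p = 9.04e-05).

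Cacna1h, on 1422710_a_at, read 7.72, 6.65 and 7.15 at P7, 6.84, 4.08 and 4.61 at P10, 3.82, 6.15 and 6.21 at P15, 3.81, 3.88 and 4.07 at P25 and 3.36, 3.79 and 3.76 at P40. It was over 5 on 6 of 15 arrays, 3 at P7, 1 at P10 and 2 at P15, so it passed the filter through the ages where it was high. At P10 and P15 the animals split, and those ages overlapped each other. At P25 and P40 no array was over 5, and the gene was at least 4.51-fold lower at either age than at P7, the P7 mean set against the limit of 5. The fitted differences were -3.54 for P40 (SE 0.69, 95% interval -5.0 to -2.07, limma adjusted p = 0.000975) and -3.25 for P25 (adjusted p = 0.00194). For P40 it was -2.17 with values under 5 set to 5 and -4.72 with the actin covariate, called in both. A second probe set, 1427607_at, lay between 2.44 and 2.60.

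The calls between neighbouring ages lay at the steps to P15 and to P25. At the first step, P10 minus P7, 0 of 12 probe sets were called by limma (2.77% of all probe sets), with 3 at an unadjusted p under 0.05. The share of all probe sets at that unadjusted limit was not counted, so the 3 are not read as an excess. At P15 minus P10, 4 of 12 were called lower and 0 higher, against 2.46% lower and 7.52% higher of all probe sets: Cacna1b 1460608_at by 1.93-fold (adjusted p = 0.0492), Cacna1e by 3.30-fold (adjusted p = 0.0156), Cacna1c 1435730_at by 1.99-fold and Cacna1g by 2.97-fold (adjusted p = 0.0409). These calls rest on few arrays. Without P10 replicate 1, P15 replicate 2 or P15 replicate 3, 0 of the 4 were left, without P10 replicate 2 or P15 replicate 1 there was 1, without P25 replicate 1 or 2 or P40 replicate 3 there were 2, and without both P15 arrays of low spiked controls 0. The P15 pools held 23 to 45 cells and the P10 pools 47 to 72, and with cells picked as a covariate 0 of the 4 were left, with smaller differences for Cacna1g (-0.89, against -1.57) and Cacna1b (-0.61, against -0.95). The actin covariate also left 0, and the replicate block 2. At P25 minus P15, 2 of 12 were called, both of Cacna1b and both lower (2.3% of all probe sets were called lower and 1.94% higher), 1460608_at by 2.16-fold (adjusted p = 0.0422) and 1439612_at by 2.37-fold (adjusted p = 0.0253). Neither was left without P15 replicate 2 or 3 or P25 replicate 1 or 2, and 1 was left without P10 replicate 2, P25 replicate 3, P40 replicate 1 or P40 replicate 3. At P40 minus P25, 0 of 12 were called by limma (1.74% of all probe sets), with 4 at an unadjusted p under 0.05, among them Cacna1e (-1.15, adjusted p = 0.145) and Cacna1g (-1.29, adjusted p = 0.187). Here too the share of all probe sets at the unadjusted limit was not counted. Over the longer span of P25 minus P7, 6 of 12 probe sets and 4 of 7 genes were called lower and 0 higher, against 15.2% of probe sets and 15.1% of genes called lower, and 23.6% and 25.7% called higher. Cacna1h, which passed the filter only through younger ages, is in both counts. With the filter set at 7 it was not tested, and 3 of 6 genes were called lower. The comparisons share arrays and are given side by side for that reason.

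Markers of other cells were read on the same arrays. For each list the log2 of the summed linear values is given. Excitatory markers summed to 5.31 to 5.46 at P40 and 5.68 to 5.87 at P7, with 0 of 5 genes over 5 on any of these arrays. Oligodendrocyte precursor markers had 0 of 4 genes over 5. Oligodendrocyte markers summed to 8.93 to 9.92 at P40 and 10.74 to 11.07 at P7 (2 of 5 genes over 5), astrocyte markers to 5.52 to 8.35 at P40 and 5.70 to 7.16 at P7 (0 to 1 of 6). Microglial markers summed to 6.04 to 6.22 at P40 (0 of 6) and 6.56 to 7.53 at P7 (0 to 2 of 6), and endothelial and mural markers to 5.21 to 5.32 at P40 (0 of 6) and 5.57 to 6.15 at P7 (0 to 1 of 6). Markers of other interneuron classes summed to 13.11 to 14.00 at P40 (3 to 4 of 6) and 12.74 to 13.95 at P7 (4 to 5 of 6). At P25 astrocyte markers summed to 7.55 to 10.08 (1 to 4 of 6 over 5) and oligodendrocyte markers to 11.01 to 12.20 (3 of 5). At P10 astrocyte markers summed to 5.71 to 9.38, at P15 to 5.52 to 6.86, and oligodendrocyte markers to 9.68 to 10.59 and 9.84 to 9.96 at these ages. Called lower at P40 than at P7, as 5 alpha1 genes were, were Reln (-2.70, limma adjusted p = 0.0011), the oligodendrocyte marker Cnp (-1.65, adjusted p = 0.00322) and the microglial marker Csf1r (-1.83, adjusted p = 0.00715). The Cnp probe set has the suffix _x_at, of probes that may also match other transcripts. Cck (3.55, limma adjusted p = 1.55e-06) and the astrocyte marker S100b (2.50, adjusted p = 0.0269) were called higher. The Csf1r and S100b values lay near or under the limit of 5. Csf1r was over 5 on 0 P40 arrays and 1 P7 array, and so at least 1.08-fold lower at P40. S100b was over 5 on 2 P40 arrays and 0 P7 arrays, and so at least 1.94-fold higher. The part of these cells in the alpha1 values was not tested.

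The other genes of the channel complex and its partners came from 6 lists. Of 37 tested partner genes, 10 were called higher at P40 and 9 lower, where 27% of all genes were called higher and 17.3% lower. Among these, Cacng4, Cacng5 and Ryr3, called lower, and Ryr1, called higher, passed the filter only through the ages where they were high. Of 2 tested beta subunit genes, which bind the alpha1 subunit inside the cell, Cacnb4 rose 3.74-fold (12.43 ± 0.19 at P40 and 10.52 ± 0.10 at P7, SD, n = 3 each, limma adjusted p = 1.44e-05). Cacnb1 fell 2.26-fold (7.35 ± 0.17 at P40 and 8.53 ± 0.28 at P7, adjusted p = 0.00218). Of 2 tested alpha2delta genes none was called: Cacna2d2 differed by 0.50 (adjusted p = 0.122) and Cacna2d3 by -1.24 (adjusted p = 0.117). Of 3 tested gamma subunit genes 2 fell, Cacng4 by at least 34.9-fold and Cacng5 by at least 9.88-fold, with all P40 arrays under 5, and Cacng2 was not called (0.24). Cacng4 was over 5 on 8 arrays and Cacng5 on 7, with 0 at P40. The filter thus let them in through younger ages, and the count of 2 of 3 is not read as a result about gamma subunits. The products of Cacng2, Cacng4 and Cacng5 are best known as auxiliary subunits of AMPA-type glutamate receptors rather than of calcium channels.

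Of 15 tested genes of the presynaptic release site, 4 rose, 4 fell and 7 were not called, against 27% higher and 17.3% lower of all genes, and their median was 0.13, against 0.18 over all genes. Syt2, a fast calcium sensor of vesicle fusion, rose 36.1-fold (12.38 ± 0.45 at P40 and 7.21 ± 0.75 at P7, limma adjusted p = 1.63e-07), and Snap25, a membrane SNARE protein, rose 3.94-fold (adjusted p = 0.000191; log2 difference 1.98, and 1.37 with the actin covariate). Erc1, an active-zone scaffold, fell 24.7-fold (5.23 ± 0.48 at P40, where 2 of 3 arrays were over 5, and 9.86 ± 0.83 at P7, adjusted p = 1.84e-06), and Stx1a, syntaxin 1A, fell 8.12-fold (adjusted p = 4.28e-05). The Stx1a probe set has the suffix _x_at, which marks probes that may also match other transcripts. Of 7 tested calcium-gated channels and release channels of the reticulum, 2 rose and 1 fell: the ryanodine receptor genes Ryr2 (3.31-fold higher, adjusted p = 0.000128), Ryr1 (at least 1.91-fold higher, adjusted p = 3.87e-06) and Ryr3 (at least 2.03-fold lower, adjusted p = 0.0218). Averaging all probe sets of a gene gave smaller log2 differences for Syt2 (3.29, against 5.17), Erc1 (-1.68, against -4.62), Ryr1 (2.29, against 3.45) and Ryr2 (0.82, against 1.73), each still called. With values under 5 set to 5, Ryr1 gave 0.93. The Ryr3 call was lost with values under 5 set to 5 (-1.03), without P7 replicate 2 (-1.35, against -1.89) or without any 1 of the P40 arrays (-1.91 to -1.89). Of 8 tested calmodulin-type and kinase regulators, 3 rose, 1 fell and 4 were not called (27% higher and 17.3% lower over all genes). Camk2a and Camk2g, subunits of calcium/calmodulin-dependent kinase II, rose 4.24-fold (limma adjusted p = 0.000187) and 2.35-fold (adjusted p = 0.00091). Camk2a averaged 5.38 ± 0.36 at P7, where 2 of 3 arrays were over 5, so its fold starts near the limit. Ppp3ca, the calcineurin catalytic subunit, fell 1.80-fold (adjusted p = 0.00099).

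**Figure D4:**
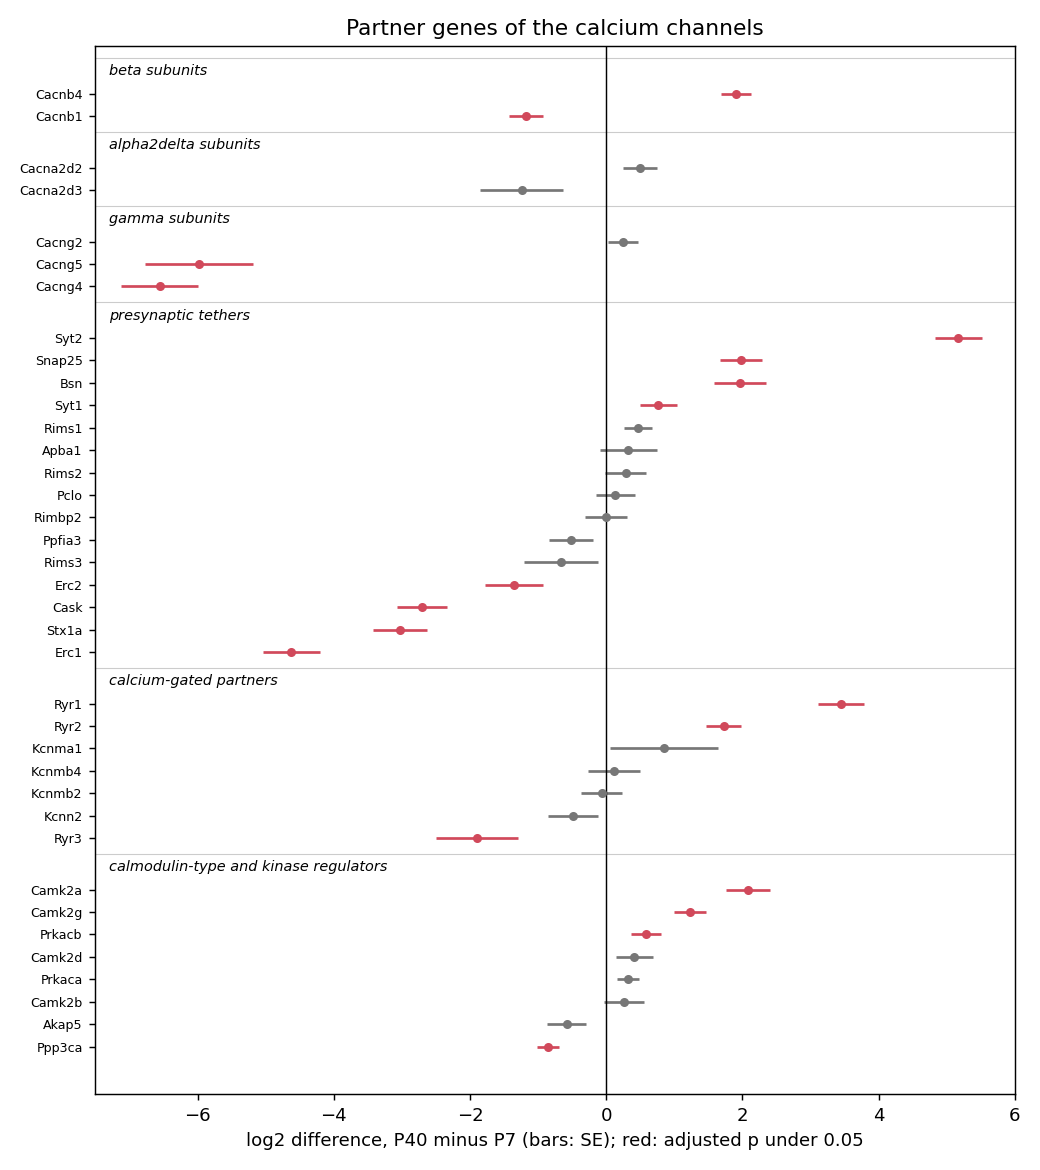
Log2 differences of P40 minus P7 (x axis, bars for the SE) for the tested genes of the 6 partner lists (y axis), with called genes in red. Syt2 lies farthest to the right at 5.17, and Cacng4 and Cacng5 farthest to the left at -6.56 and -5.97.

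For each alpha1 gene the genes with the most similar values over the 15 arrays were taken from 9656 other genes, by Pearson correlation, as a description. They were Pcyt1b (0.971) and Sec61a1 (0.969) for Cacna1g, Cyp4x1 (0.962) and Arhgap33 (0.956) for Cacna1e, and Fnbp1l (0.954) and Scarb1 (0.947) for Cacna1b. For Cacna1h they were Ehbp1l1 and As3mt (0.930 each), for Cacna1d Zdhhc23 (0.916) and Dzip1 (0.897), for Cacna1a Fam189a1 (0.81) and Tcl1b3 (0.806), and for Cacna1c Pold1 (0.802) and Lzts1 (0.799). The 15 points are 5 ages of 3 animals, and genes of any steady course over age correlate with each other.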

How the data were processed

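RNA of hand-picked G42 neurons was measured on 15 Affymetrix arrays, 3 animals at each of 5 ages, from 0.3 to 1 ng of RNA. The values deposited by the authors are on the log2 scale, made with GCRMA per the submitters' processing notes; any further step is not given in the sources at hand. GCRMA corrects background by probe sequence. Array medians of the deposited values ran from 3.21 to 3.46, and no further scaling was applied except as an alternative. Of 45101 probe sets, 34945 named 1 gene in the platform annotation, 932 several and 9160 none, and 64 were controls. The number of arrays limits the precision.

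Probe sets of 1 gene over 5 on at least 3 arrays were fitted with limma 3.58.1 in R 4.3.3 (means of 5 ages, no covariate, eBayes with a trend, 10 residual degrees of freedom and a median of 4.34 prior ones). Adjusted p is by Benjamini-Hochberg over 15381 probe sets. The limit of 5 was set here and is no detection call. A fold is given where both means pass 5, and "at least" where all arrays of an age do not. Python 3.11.15 counted motifs. The fit was tested on simulated data. Named genes are all members, the 2 called partner genes of smallest adjusted p in each list and direction, the 2 most similar genes and class markers. Members and lists were chosen with earlier results of these data known. Alternatives covered scaling, filters, probe set choice, variance model, cells picked, actin ratio, the replicate block and arrays left out. The labels do not say whether a replicate number marks a shared litter or day. No slide or scan date was used, and background methods could not be varied without scanner files.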

Additional observations from a re-analysis of the deposited data

How the results depend on the processing

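The P40 minus P7 and P25 minus P7 results were the steadier ones: over 15 arrays left out in turn and 16 other settings, 4 to 5 and 3 to 5 genes were called, all lower except Cacna1a at P25 in 4 settings, and 1460608_at and 1436602_x_at of Cacna1b, Cacna1e, Cacna1g and Cacna1h were called wherever they could be fitted. Partner genes called numbered 15 to 20 (19 as reported). The labels give no pairing of animals by replicate number. Deviations of same-numbered arrays correlated at a median of -0.0556 over 30 pairs, and others at 0.0378 over 60. Whether same-numbered animals shared a litter or day was not tested. With the replicate block, P15 minus P10 gave 2 probe sets and 2 genes (4 and 4 in the main fit), P25 minus P15 gave 1 and 0 (2 and 1 in the main fit), and the counts for P40 minus P7 and P25 minus P7 stayed within 1.5 times. In the main fit 2.54% of all genes were called lower at P15 minus P10 and 7.87% higher. At P25 minus P15 these shares were 2.21% and 2.17%. For P15 minus P10, 1 probe set and 1 gene were called with no filter on dim probe sets or without P40 replicate 1 and P25 replicate 2, 0 and 0 with cells picked or the actin difference as a covariate or without the 2 P15 arrays of low spiked controls, and 2 genes with the mean of the probe sets. Leaving out arrays gave 0 to 4 of either. For P25 minus P15, probe sets numbered 0 with no filter, with the actin covariate and without P40 replicate 1 and P25 replicate 2. They numbered 1 without a trend and 0 to 3 with an array left out. Array weights gave 6, 1 higher and 5 lower. Genes there numbered 0 with no filter, without a trend, with the actin covariate and without P40 replicate 1 and P25 replicate 2. They numbered 2 with values floored at 5 or cells picked as a covariate, and 0 to 2 with an array left out. Array weights gave 4 genes, 1 higher and 3 lower. For P10 minus P7, 1 gene was called with the mean of the probe sets, and 0 to 1 probe sets and genes with an array left out. For P40 minus P25, no filter, which also tested the 5 dim probe sets, gave 6 probe sets, 1 higher and 5 lower, and 1 gene, lower. Array weights gave 4 probe sets, 1 higher and 3 lower, and 3 genes, all lower. An array left out gave 0 to 1 of either (0 as reported). The P40 minus P7 difference of 1435730_at of Cacna1c (0.05) was -0.17 with quantile normalization and with equal medians, -0.49 with the mean of the probe sets (then called lower, adjusted p = 0.0332, as was P25 minus P7, -0.58, adjusted p = 0.0162), -0.00999 with array weights, -0.0194 with the actin covariate, -0.12 without P40 replicate 1 and P25 replicate 2, and -0.12 to 0.22 with an array left out. The P25 minus P7 difference of 1459996_at of Cacna1a ran from -1.37 to 0.16 with an array left out. The causes were not tested. Over all probe sets, P40 minus P7 gave 6439 calls, 62% of them higher; the share was 52.9% with quantile normalization, 50.5% with equal medians and 29.4% of 14340 with no filter, and the actin covariate left 3665 calls. Values near 5 are limited by background.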
